A study of Mus musculus with 12 samples.

Results

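The expression of 39 cell cycle genes was followed through 12 RNA-seq libraries of 4 mouse melanoma cell lines. The genes are named members of the DNA replication and mitosis programmes, taken by symbol from the 55471 gene identifiers that were counted, and they fall into an S phase group of 18 and a mitosis group of 21. The lines were MeVa2.1.dOVA, MeVa2.2.dOVA and the lines whose names they extend, MeVa2.1 and MeVa2.2, with 3 libraries per line numbered replicates 1 to 3 in the sample titles. All carried the labels WT for genotype and untreated for treatment, with skin and s.c tumor given as the tissue. The study's title presents MeVa2.1.dOVA as refractory to immunity, and the labels do not spell out dOVA, say whether a line is 1 clone, or say what a replicate number stands for or whether replicates were separate cultures. The p-values below therefore measure no more than how these libraries spread, and that spread may be technical. Levels are in CPM, a gene's counts per 1000000 gene-assigned counts of the library.

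In dividing cells, the E2F factors switch on the genes of DNA synthesis as a cell leaves G1: cyclin E, the loading factors Cdc6 and Cdt1, the MCM helicase with its GINS partner, the sliding clamp PCNA and the enzymes that make nucleotides. A later wave, driven by B-MYB and FOXM1 together with the MuvB complex, supplies cyclin A and cyclin B, Cdk1, the Aurora and Polo kinases, spindle motors and the spindle checkpoint. In resting cells, or after p53 raises the CDK inhibitor p21, the DREAM complex holds both waves down. Cultured melanoma cells normally run through both waves, and RNA from a culture averages over cells in all phases.

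The letters that E2F, the MuvB complex (at CHR) and NF-Y (at CCAAT) are known to read are shown first for 4 members on which the comparisons below turn: Mcm5, a helicase subunit of the S phase group, Cdc20 and Aurka of the mitosis group, and Cdt1, the member with the largest share of its variance between lines. Each line is 1 RefSeq promoter window on GRCm38.p6, 250 bases before to 50 bases after the start, written 5′ to 3′ in the direction of the gene. The windows lie at chr8:75109259-75109558, plus strand, at chr4:118437294-118437593, minus strand, at chr2:172370521-172370820, minus strand and at chr8:122567765-122568064, plus strand. Capitals mark matches on either strand to an E2F motif (TTTCCCGC, TTTCGCGC, TTTGCCGC or TTTGGCGC), a cell cycle homology region, called CHR (TTTGAA or TTCGAA), or a CCAAT box (CCAAT).
Mcm5: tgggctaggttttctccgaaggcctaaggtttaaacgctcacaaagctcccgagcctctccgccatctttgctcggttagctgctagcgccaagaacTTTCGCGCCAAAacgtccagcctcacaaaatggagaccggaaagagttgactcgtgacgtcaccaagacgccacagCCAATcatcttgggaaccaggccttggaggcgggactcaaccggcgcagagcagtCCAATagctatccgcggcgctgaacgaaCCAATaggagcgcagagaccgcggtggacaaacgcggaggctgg
Cdc20: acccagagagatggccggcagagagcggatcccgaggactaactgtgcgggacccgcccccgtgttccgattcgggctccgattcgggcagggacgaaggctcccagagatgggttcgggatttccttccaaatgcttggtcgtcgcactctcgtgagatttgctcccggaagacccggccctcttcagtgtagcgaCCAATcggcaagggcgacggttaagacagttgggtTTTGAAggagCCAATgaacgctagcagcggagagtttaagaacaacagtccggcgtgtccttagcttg
Aurka: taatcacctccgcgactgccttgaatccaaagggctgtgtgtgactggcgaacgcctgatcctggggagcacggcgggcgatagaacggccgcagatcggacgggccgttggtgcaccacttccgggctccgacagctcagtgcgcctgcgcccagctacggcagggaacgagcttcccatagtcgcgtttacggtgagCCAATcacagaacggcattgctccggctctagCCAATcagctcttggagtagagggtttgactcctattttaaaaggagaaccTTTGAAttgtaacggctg
Cdt1: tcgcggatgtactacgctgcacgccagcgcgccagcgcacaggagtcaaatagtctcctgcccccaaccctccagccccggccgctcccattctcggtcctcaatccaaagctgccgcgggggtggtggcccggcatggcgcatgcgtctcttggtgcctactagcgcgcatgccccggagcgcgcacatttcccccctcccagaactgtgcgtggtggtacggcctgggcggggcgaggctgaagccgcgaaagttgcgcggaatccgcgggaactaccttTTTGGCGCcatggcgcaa
In Mcm5 the first run of capitals is TTTCGCGC overlapped by GCGCCAAA, an E2F match on the other strand, and the other 3 are CCAAT boxes. Cdc20 and Aurka each hold TTTGAA and 2 CCAAT boxes, and Cdt1 holds TTTGGCGC just inside the transcribed part.

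A promoter window was found for 31 of the 39 members, 15 of the S phase group and 16 of the mitosis group. Those not matched were Mcm4, Gins2 and Ccne2 of the S phase group and Ccna2, Aurkb, Foxm1, Kif20a and Tpx2 of the mitosis group. An E2F match lay in 7 of the 15 S phase windows, namely Mcm3, Mcm5, Mcm6, Mcm7, Cdc6, Cdt1 and Uhrf1, and in 1 of the 16 mitosis windows, Cdk1, against 2.6% of the 27025 genes with a window. A CHR match lay in 2 S phase windows, Mcm2 and Mcm7, and in 12 mitosis windows, against 21.7% of all genes. The 4 mitosis windows without one belonged to Birc5, Ccnb1, Cenpe and Melk. CCAAT lay in 9 of the S phase and 14 of the mitosis windows, against 41.1% of all genes, and CHR with CCAAT together in 2 and 12, against 9.7%. In the other G2/M genes counted below, a CHR match lay in 25 of 34 windows, and in the other S phase genes an E2F match lay in 8 of 21. A match of letters is a description of the sequence, and an empty window says only that these letters are not in it.

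Replicates 1 and 2 held 16181816 to 19204452 gene-assigned counts and replicate 3 held 26291546 to 35627069, so depth moved with the replicate number. No member had fewer than 60 counts in any library, and all 39 were among the 13985 genes that passed the filter on low counts. Replicates were not copies of each other: their counts differed with a chi-square of at least 27.3 per degree of freedom in each line. All 7 melanocyte markers were low in these lines, with a summed level of 9.07 to 58.3 CPM. Mlana, Tyr, Tyrp1, Dct and Sox10 were each at 0 in at least 1 library, and Mitf, the melanocyte master regulator, lay between 8.84 and 24.1 CPM. Mlana, Tyrp1, Dct and Sox10 were read in replicate 1 of every line and were at 0 in replicate 2 of every line. The highest sum was that of replicate 1 of MeVa2.2, with 15.9 CPM of Dct and 12.3 CPM of Tyrp1. The leukocyte markers, 9 in number, summed to 1.12 to 2.35 CPM in replicate 1, 0.104 to 0.369 in replicate 2 and 0.114 to 0.393 in replicate 3, with Cd3e at 0 in all 12 libraries. Summed levels were 0.356 to 1.24 CPM for 4 endothelial markers and 1.31 to 2.84 CPM for 4 keratinocyte markers.

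Genes of both programmes were read in every library. Per kilobase of exon, the scale on which genes can be compared, the highest mean level was that of Tpx2, a spindle assembly factor that activates Aurora A, at 53.8 CPM per kb. Top2a, the topoisomerase that untangles chromosomes, followed at 44.7, cyclin A2 (Ccna2) at 43.6 and the helicase subunit Mcm6 at 41.4 CPM per kb. Lowest were Cdc6 at 3.29, the B-MYB gene Mybl2 at 3.398 and Gins2, a subunit of the GINS complex, at 3.45 CPM per kb. The median member stood at 21.5 CPM per kb in the S phase group and at 23.3 in the mitosis group. The length was the union of all annotated exons of a gene, whatever transcript was in use, so these ranks are approximate.

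Rrm1 had 293, 118 and 289 CPM in replicates 1, 2 and 3 of MeVa2.1.dOVA, 145, 109 and 347 in MeVa2.1, 171, 188 and 357 in MeVa2.2.dOVA and 236, 121 and 408 in MeVa2.2. Rrm1, the large subunit of ribonucleotide reductase, was lowest in replicate 2 in every line but MeVa2.2.dOVA. Mcm6 had 230.4, 130.0 and 259.7 CPM in replicates 1, 2 and 3 of MeVa2.1.dOVA, 141, 134 and 269.8 in MeVa2.1, 74.0, 85.6 and 335 in MeVa2.2.dOVA and 249.99, 86.8 and 323 in MeVa2.2. In this gene replicate 3 was the highest in all 4 lines. Ttk had 38.3, 10.1 and 36.8 CPM in replicates 1, 2 and 3 of MeVa2.1.dOVA, 26.6, 15.9 and 48.8 in MeVa2.1, 11.9, 12.9 and 43.8 in MeVa2.2.dOVA and 30.3, 7.16 and 51.8 in MeVa2.2. Ttk, the spindle checkpoint kinase Mps1, had its replicate 1 in MeVa2.1.dOVA at the level of replicate 3 and that in MeVa2.2.dOVA at the level of replicate 2.

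Top2a had 460.0, 173 and 534 CPM in replicates 1, 2 and 3 of MeVa2.1.dOVA, 379, 271 and 748 in MeVa2.1, 122, 136 and 705 in MeVa2.2.dOVA and 428, 117 and 761 in MeVa2.2. Mki67 had 456, 121 and 318 CPM in replicates 1, 2 and 3 of MeVa2.1.dOVA, 230.0, 128 and 541 in MeVa2.1, 103, 56.9 and 467 in MeVa2.2.dOVA and 237, 45.0 and 535 in MeVa2.2. Mki67, which encodes the proliferation marker Ki-67, and Top2a differed among the libraries of a single line by far more than the line means differed from each other. Over the 12 libraries the highest level was a median of 4.12 times the lowest in the S phase group and 8.20 times in the mitosis group, against 2.75 times over all genes tested.

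Summed over the 18 S phase members, the level was 1763, 1160.0 and 1988 CPM in replicates 1, 2 and 3 of MeVa2.1.dOVA, 1097, 930.3 and 2143 in MeVa2.1, 902, 1061 and 2297 in MeVa2.2.dOVA and 1803, 865 and 2471 in MeVa2.2. Summed over the 21 mitosis members, it was 3322, 1014 and 3157 CPM in MeVa2.1.dOVA, 2497, 1385 and 4158 in MeVa2.1, 1015, 846 and 3560.4 in MeVa2.2.dOVA and 2385, 648 and 4201 in MeVa2.2. Replicate 3 lay above replicate 2 in all 4 lines, while the place of replicate 1 differed between lines. It was close to replicate 3 in MeVa2.1.dOVA and close to replicate 2 in MeVa2.2.dOVA. The 39 members together held 0.151% to 0.667% of a library's gene counts.

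**Figure D1:**
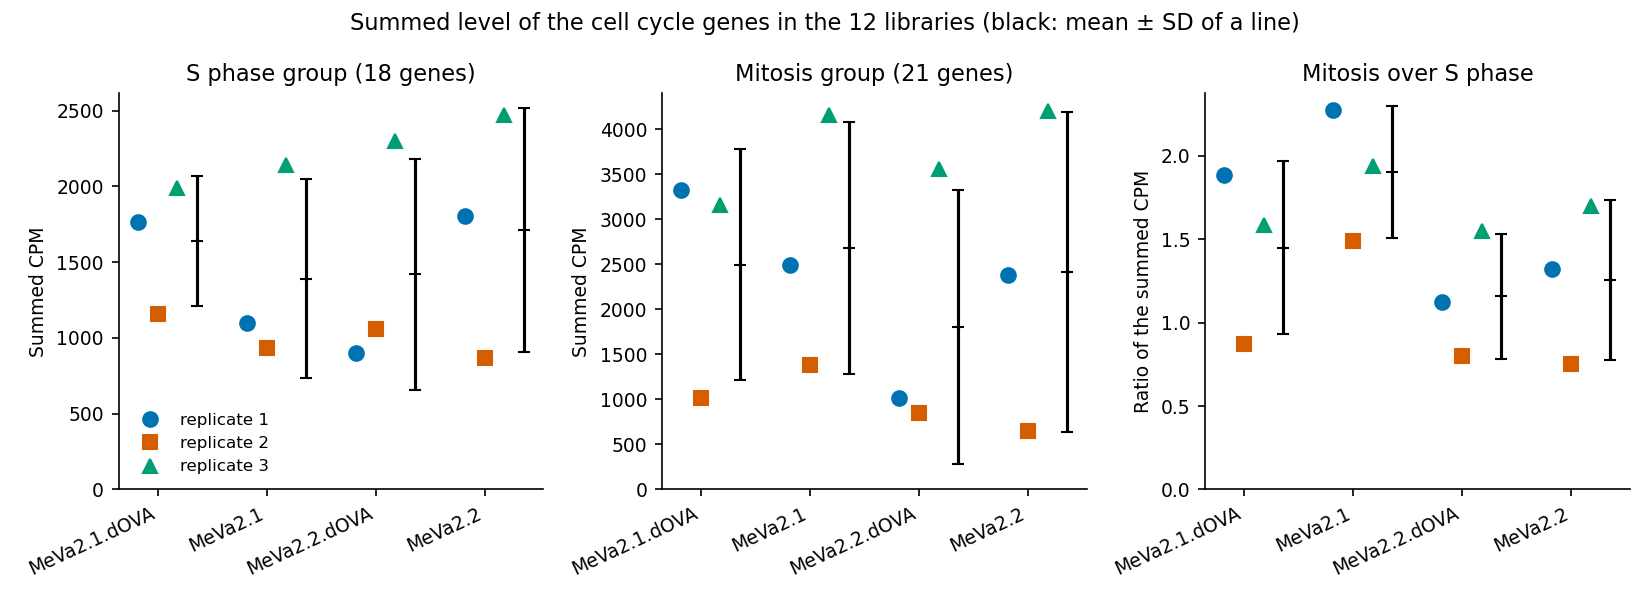
Summed CPM of the S phase group (left) and of the mitosis group (middle), and the ratio of the 2 sums (right), for each of the 12 libraries, with the lines on the x axis and the mean ± SD of each line (n = 3) in black. Replicate 3 lies between 1988 and 2471 CPM in the S phase group and between 3157 and 4201 CPM in the mitosis group, above every replicate 2 library, while the mean ± SD bars of the lines overlap.

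Averaged over the 4 lines, the mitosis sum was 3769 ± 502 CPM in replicate 3, 973 ± 312 in replicate 2 and 2304 ± 956 in replicate 1 (SD, n = 4 lines). The S phase sum was 2225 ± 207 CPM in replicate 3, 1004 ± 132 in replicate 2 and 1391 ± 459.6 in replicate 1. Between replicate 2 and the other numbers, mitosis genes moved further than S phase genes, while between replicates 3 and 1 the groups moved alike. The ratio of the mitosis sum to the S phase sum was 1.69 ± 0.176 in replicate 3, 0.977 ± 0.344 in replicate 2 and 1.65 ± 0.526 in replicate 1. It was lowest in replicate 2 in all 4 lines. In a bulk library, fewer cells in S phase or mitosis and less of this RNA per cell cannot be told apart.

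Whether libraries of 1 number shared a level was tested in a fit with line and replicate number as terms, by edgeR's quasi-likelihood F test over all genes. Replicate 3 carried more mitosis RNA than replicate 2 in every line, with a median of 4.05-fold over the group, and more S phase RNA, with a median of 2.21-fold. At an adjusted p of 0.05 the F test called 35 of the 39 members, 14 of the S phase group and all 21 of the mitosis group, where it called 20.1% of all genes. Taken pair by pair, 16 S phase and 21 mitosis members were higher in replicate 3 than in replicate 2 and 0 were lower, where 13.8% of all genes were higher and 11.6% lower. Between replicates 2 and 1, 6 mitosis members were lower in replicate 2, where 1.9% of all genes were lower. They were Kif20a, Cdc20, Aurka, Foxm1, Plk1 and Cenpa, and 0 members were higher, where 0.93% of all genes were. In that pair 0 S phase members were called in either direction, where 2.83% of all genes were, and 8 had an unadjusted p under 0.05, as did 27.1% of all genes. Between replicates 3 and 1, 0 members were called, where 0.636% of all genes were, and 13 S phase and 11 mitosis members had an unadjusted p under 0.05, as did 18.8% of all genes.

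The median log2 difference of replicate 3 over replicate 2 was 1.14 in the S phase group and 2.02 in the mitosis group, against 0.01 over all genes tested. For replicate 2 over replicate 1 it was -0.41 and -1.20, against -0.01, and for replicate 3 over replicate 1 it was 0.72 and 0.74, against a median of all genes that rounds to 0. Replicate 2 was the lowest library of its line in all 4 lines for 5 S phase and 18 mitosis members, against 14.1% of all genes. Replicate 3 was the highest in at least 3 lines for 16 S phase and 21 mitosis members, against 25.1%, and in all 4 lines for 10 and 7, against 9.2%. Several other properties moved with the replicate number. Besides depth and the leukocyte markers, the 6 fibroblast markers summed to 3005 to 5643 CPM in replicate 3, 1551 to 2743 in replicate 2 and 1501 to 3820 in replicate 1. That sum was carried by the collagen genes Col1a1 and Col1a2, both highest in replicate 3 in all 4 lines. Pdgfra, a receptor of the same list, ran the other way in 3 of the 4 lines. Pdgfra had 101, 60.8 and 29.8 CPM in replicates 1, 2 and 3 of MeVa2.1.dOVA, 189, 140.2 and 70.4 in MeVa2.1, 53.6, 28.1 and 10.9 in MeVa2.2.dOVA and 197, 162 and 199.8 in MeVa2.2. The other markers of the list were low and mixed, with at most 4.17 CPM for Dcn, 5.52 for Lum and 29.8 for Thy1. Dcn and Thy1 were lowest in replicate 3 of MeVa2.1. Dcn was highest in replicate 3 of both dOVA lines, Thy1 in that of MeVa2.2, and Lum in that of MeVa2.2.dOVA and MeVa2.2. The 6 mitochondrial mRNAs, a measure of RNA quality, summed to 9984 to 13639 CPM in replicate 3, 11538 to 15347 in replicate 2 and 11825 to 15044 in replicate 1. The melanocyte markers summed to 11.9 to 21.1 CPM in replicate 3, 9.07 to 20.0 in replicate 2 and 16.6 to 58.3 in replicate 1. The part of these markers in the result was not tested. With every library thinned to 16181816 counts, the depth of the smallest, the F test called 14 S phase and 21 mitosis members and 18.8% of all genes.

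**Figure D2:**
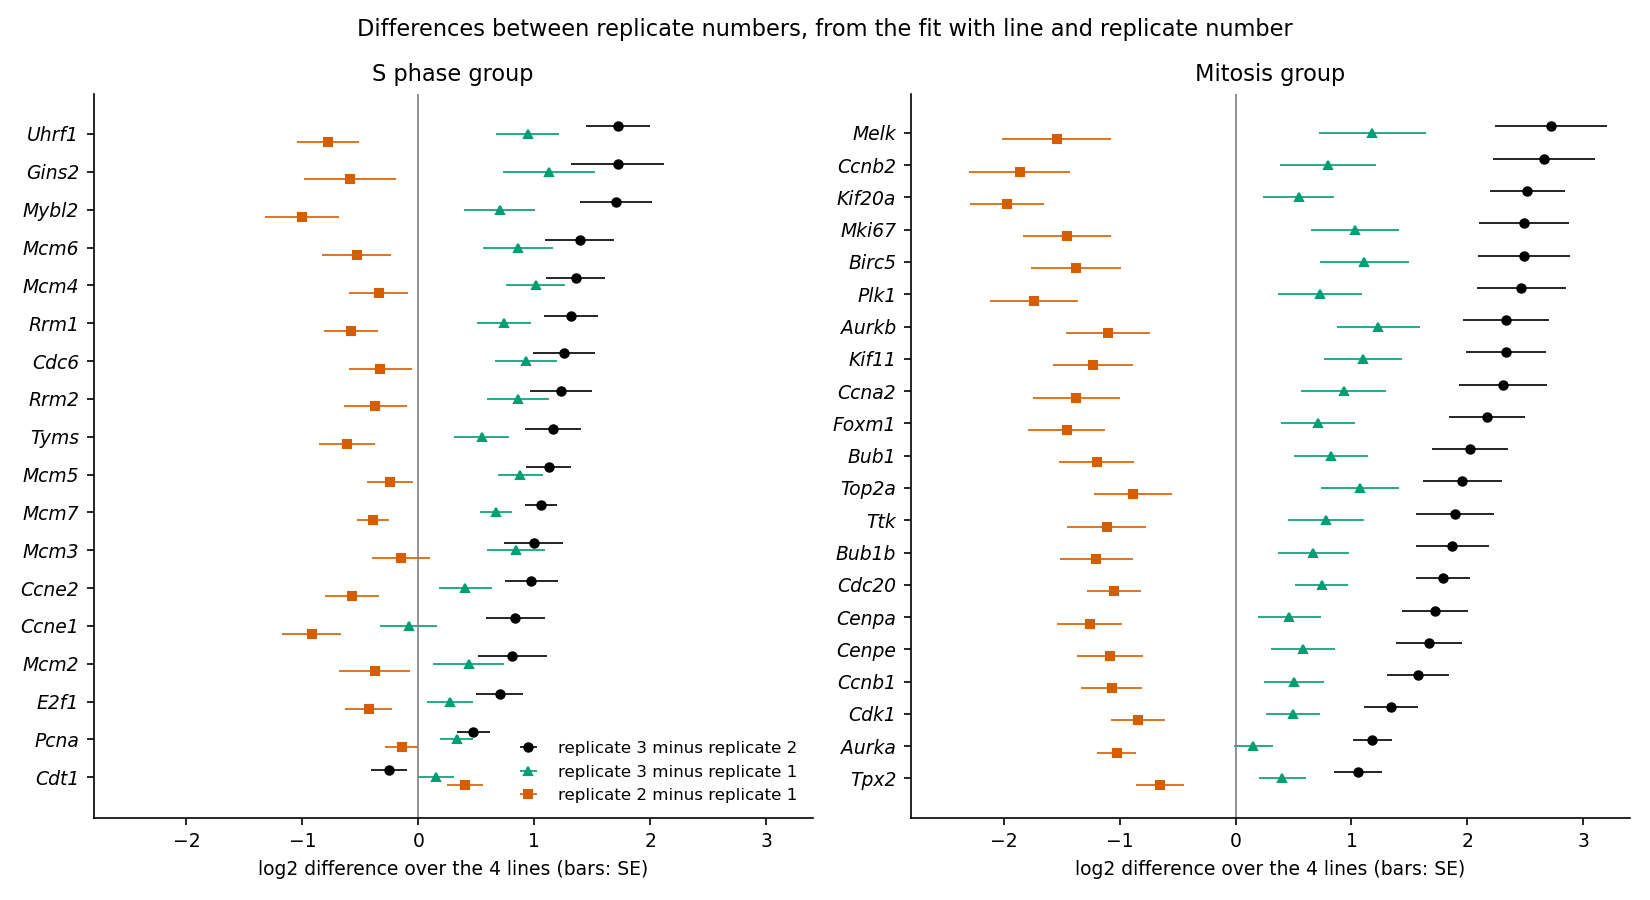
Log2 difference between replicate numbers, over the 4 lines, for the 18 S phase genes (left) and the 21 mitosis genes (right), ordered by replicate 3 minus replicate 2, with bars for the SE of the edgeR fit. Replicate 3 minus replicate 2 runs from -0.25 in Cdt1 to 1.72 in Uhrf1 in the S phase group and from 1.06 in Tpx2 to 2.72 in Melk in the mitosis group.

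In the S phase group the genes of origin loading and the helicase were not uniform. Of the 6 subunits of the MCM2-7 helicase, which unwinds DNA at the fork, 5 rose in replicate 3 over replicate 2, with log2 differences of 1.39 for Mcm6, 1.36 for Mcm4, 1.12 for Mcm5, 1.06 for Mcm7 and 0.9947 for Mcm3. The sixth, Mcm2, had 0.81 (SE 0.30, adjusted p = 0.0706). Cdc6, which loads the helicase on origins, rose by 1.26, and Gins2, which activates it, by 1.72. Cdt1, the partner of Cdc6 in loading, had -0.25 (SE 0.15, adjusted p = 0.242) and was the single member on the negative side.

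The S phase members with the smallest p in the F test were Mcm7, Uhrf1 and Mcm5. Mcm7 had 81.4, 56.2 and 101 CPM in replicates 1, 2 and 3 of MeVa2.1.dOVA, 57.0, 47.3 and 108 in MeVa2.1, 62.0, 53.1 and 131 in MeVa2.2.dOVA and 104, 61.5 and 143 in MeVa2.2. Replicate 3 of Mcm7 (chromosome 5, 138164583 to 138172422, minus strand) was the highest and replicate 2 the lowest in all 4 lines, and its log2 difference of replicate 3 over replicate 2 was 1.06 (SE 0.14, adjusted p = 0.00465). Uhrf1 had 122.92, 53.5 and 116 CPM in replicates 1, 2 and 3 of MeVa2.1.dOVA, 82.5, 56.1 and 163 in MeVa2.1, 35.2, 32.7 and 136 in MeVa2.2.dOVA and 94.5, 35.8 and 191 in MeVa2.2. Uhrf1 (chromosome 17, 56303321 to 56323486, plus strand), which brings the maintenance DNA methyltransferase to newly copied DNA, had a log2 difference of 1.72 (SE 0.28, adjusted p = 0.00473), and its replicate 1 was the highest library in MeVa2.1.dOVA. Mcm5 had 131, 96.9 and 164 CPM in replicates 1, 2 and 3 of MeVa2.1.dOVA, 74.4, 60.1 and 185 in MeVa2.1, 68.2, 84.7 and 181 in MeVa2.2.dOVA and 129, 75.5 and 191 in MeVa2.2. For Mcm5 (chromosome 8, 75109569 to 75128439, plus strand), with its E2F and CCAAT letters shown above, the log2 difference was 1.12 (SE 0.20, adjusted p = 0.00530), and the F test gave adjusted p = 0.0118.

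Of the genes of nucleotide supply, the log2 differences of replicate 3 over replicate 2 were 1.32 for Rrm1 and 1.23 for Rrm2, the subunits of ribonucleotide reductase, and 1.16 for Tyms, thymidylate synthase. Mybl2, the factor that links the waves, rose by 1.70. The E-type cyclins of the G1 to S switch rose by 0.98 for Ccne2 and 0.84 for Ccne1, and E2f1 by 0.70. Pcna, the sliding clamp, had the smallest of the called differences at 0.47 (adjusted p = 0.0372). In the F test over all 3 numbers, 4 S phase members missed the threshold: E2f1 with adjusted p = 0.0711, Pcna with 0.0748, Mcm2 with 0.147 and Cdt1 with 0.154.

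In the mitosis group all 21 members rose in replicate 3 over replicate 2. The B-type cyclins, which partner Cdk1 at entry into mitosis, rose by 2.66 for Ccnb2 and 1.57 for Ccnb1 on the log2 scale, Ccna2 by 2.31 and Cdk1 itself by 1.34. Among the kinases the largest difference was that of Melk at 2.72, followed by Plk1 at 2.47 and Aurkb at 2.33, and the smallest that of Aurka at 1.18. The spindle checkpoint kinases Bub1, Bub1b and Ttk rose by 2.02, 1.87 and 1.89. The motors Kif20a, Kif11 and Cenpe, which shape and use the spindle, rose by 2.51, 2.33 and 1.67, and Tpx2 by 1.06. Cenpa, the histone of the centromere, rose by 1.72, Birc5 (survivin), of the chromosomal passenger complex, by 2.49, and Foxm1, the factor that drives many of these genes, by 2.17.

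Kif20a, Cdc20 and Aurka had the smallest p in the F test. Kif20a had 212, 25.6 and 159 CPM in replicates 1, 2 and 3 of MeVa2.1.dOVA, 139, 49.8 and 204 in MeVa2.1, 58.8, 27.6 and 151 in MeVa2.2.dOVA and 122, 21.9 and 227 in MeVa2.2. Replicate 2 of Kif20a, a kinesin of the central spindle, was the lowest library in every line, and its log2 difference of replicate 3 over replicate 2 was 2.51 (SE 0.32, adjusted p = 0.00465). Cdc20 had 91.6, 35.2 and 82.8 CPM in replicates 1, 2 and 3 of MeVa2.1.dOVA, 67.8, 28.9 and 113 in MeVa2.1, 40.6, 28.4 and 91.2 in MeVa2.2.dOVA and 60.7, 24.7 and 143 in MeVa2.2. Cdc20 (chromosome 4, 118432901 to 118437352, minus strand), which activates the anaphase-promoting complex, had 1.79 (SE 0.24, adjusted p = 0.00465). Aurka had 101, 35.3 and 83.3 CPM in replicates 1, 2 and 3 of MeVa2.1.dOVA, 77.9, 32.9 and 86.3 in MeVa2.1, 64.0, 45.8 and 92.1 in MeVa2.2.dOVA and 72.4, 33.8 and 92.2 in MeVa2.2. For Aurka (chromosome 2, 172356190 to 172370535, minus strand), the kinase of centrosomes and spindle poles, the differences were 1.18 (SE 0.17, adjusted p = 0.00465) for replicate 3 over replicate 2 and -1.02 for replicate 2 over replicate 1 (adjusted p = 0.0403). Replicates 3 and 1 of Aurka overlapped, at 0.15 (adjusted p = 0.655).

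The S phase count was lower without some single libraries, and so was the share of all genes called. The F test called 6 S phase members and 6.09% of all genes without replicate 2 of MeVa2.1.dOVA, 7 members and 6.37% without replicate 2 of MeVa2.2, and 8 members and 12.9% without replicate 3 of MeVa2.2.dOVA. It called between 20 and 21 mitosis members whichever library was left out. Without all 4 libraries of number 2, the comparison of replicates 3 and 1 called 0 members, where it called 0.0765% of all genes. Without those of number 3, replicates 2 and 1 differed in 1 S phase and 12 mitosis members, all lower in replicate 2, where 9.16% of all genes were called. Without those of number 1, replicate 3 was higher than replicate 2 in 15 S phase and 21 mitosis members, where 12.6% of all genes were called in either direction.

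Set against the lines, the replicate number held most of the variation. Of the variance of log2(CPM + 1) over the 12 libraries, the replicate number held a median of 64.0% in the S phase group and 76.4% in the mitosis group, against 23.8% over all genes tested. Line held 13.8% and 6.94%, against 44.9%. The replicate number held more than line in 38 of the 39 members, where it did so in 34.5% of all genes. Aurka had the highest share for the replicate number, 90.6%, and 1.02% for line. Cdt1 was the exception, with 69.3% held by line and 11.8% by the replicate number. In Ccne1 the shares were near each other, at 42.1% for line and 43.6% for the replicate number, and in Tpx2 line held 34.5%, the most of the mitosis group.

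**Figure D3:**
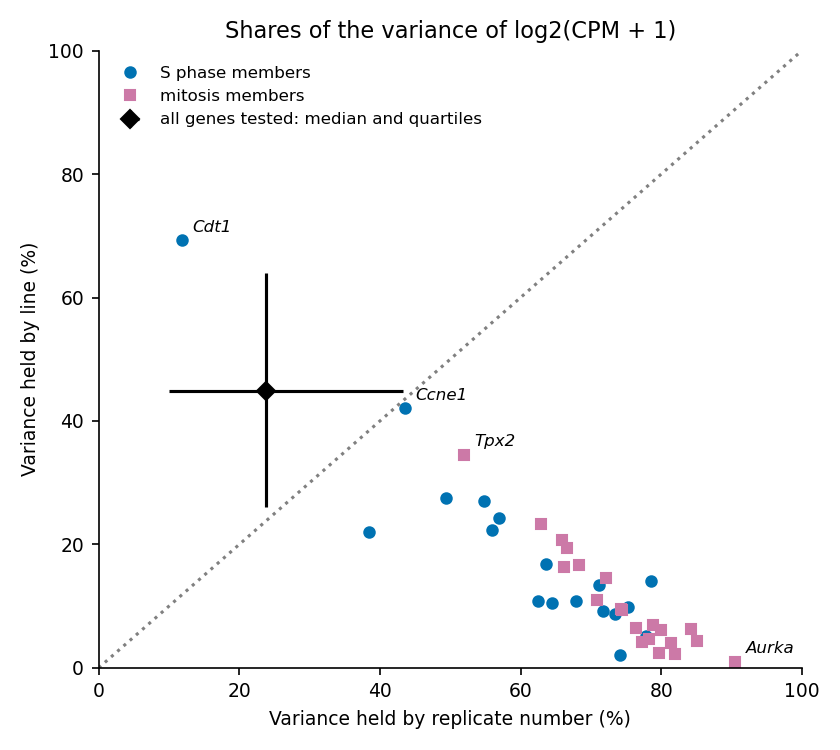
Share of the variance of log2(CPM + 1) over the 12 libraries held by the replicate number (x axis, %) and by line (y axis, %), 1 point per gene, with the median and quartiles of all 13985 genes tested in black and equal shares on the dotted line. Members lie below the dotted line except Cdt1, at 11.8% and 69.3%.

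The first line comparison set MeVa2.1.dOVA against the line it is named after. In both programmes the summed levels of their libraries overlapped. The summed level of the S phase group was 1637 ± 428 CPM in MeVa2.1.dOVA and 1390.0 ± 658 CPM in MeVa2.1, and that of the mitosis group 2498 ± 1288 and 2679.5 ± 1396 CPM (SD, n = 3 each). In edgeR's quasi-likelihood test with 1 mean per line, 0 of the 39 members were called, where 0.486% of all genes were, and DESeq2 called 0 as well. Cdt1 alone had an unadjusted p under 0.05, as did 11.2% of all genes. The median log2 fold change was 0.14 in the S phase group and -0.12 in the mitosis group, against 0.00 over all genes. Leaving out 1 library turned both: the S phase median was -0.07 without replicate 2 of MeVa2.1 and -0.05 without replicate 3 of MeVa2.1.dOVA, and the mitosis median was 0.36 without replicate 3 of MeVa2.1 and 0.27 without replicate 2 of MeVa2.1.dOVA. Members varied more within a line than most genes did, with a median SE of 0.47 in the S phase group and 0.75 in the mitosis group, against 0.31 over all genes. This fit has no term for the replicate number, and 0 calls at that spread do not show equal levels.

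Cdt1 had 73.1, 104 and 78.0 CPM in replicates 1, 2 and 3 of MeVa2.1.dOVA, 44.9, 47.7 and 53.2 in MeVa2.1, 67.5, 84.1 and 99.7 in MeVa2.2.dOVA and 59.7, 79.4 and 49.6 in MeVa2.2. Its 3 libraries of MeVa2.1.dOVA all lay above the 3 of MeVa2.1, the single member whose libraries did not overlap, where 21% of all genes had none overlapping. Cdt1 (chromosome 8, 122568015 to 122573554, plus strand) averaged 84.9 ± 16.4 CPM in MeVa2.1.dOVA and 48.6 ± 4.21 CPM in MeVa2.1 (log2 fold change 0.80, SE 0.23, adjusted p = 0.197). With the replicate number as a block it was 0.78 (SE 0.18, adjusted p = 0.0492) and was called, where that fit called 2.6% of all genes. In MeVa2.2.dOVA it averaged 83.8 ± 16.1 CPM, against 62.9 ± 15.2 CPM in MeVa2.2 (log2 fold change 0.38, SE 0.23, adjusted p = 0.422). Cdt1 was higher in the dOVA line of the MeVa2.1 pair by 1.63-, 2.17- and 1.47-fold in replicates 1, 2 and 3. For MeVa2.2.dOVA over MeVa2.2 the folds were 1.13, 1.06 and 2.01. There the Cdt1 libraries overlapped and the numbers were not treated as pairs, so these folds do not show a steady direction. How many of all genes were higher in every number was not counted for Cdt1's comparisons.

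Mcm2 had 200.3, 191 and 283 CPM in replicates 1, 2 and 3 of MeVa2.1.dOVA, 133, 119 and 209 in MeVa2.1, 86.4, 110.1 and 253 in MeVa2.2.dOVA and 251, 78.6 and 159 in MeVa2.2. Mcm2 came next in the S phase group by size and p (log2 fold change 0.55, SE 0.43, adjusted p = 0.699 for MeVa2.1.dOVA over MeVa2.1), with overlapping libraries. Ccnb2 had 80.0, 10.3 and 82.8 CPM in replicates 1, 2 and 3 of MeVa2.1.dOVA, 79.2, 36.4 and 110.4 in MeVa2.1, 12.7, 8.85 and 71.1 in MeVa2.2.dOVA and 65.0, 8.22 and 97.7 in MeVa2.2. Foxm1 had 169.7, 22.5 and 189 CPM in replicates 1, 2 and 3 of MeVa2.1.dOVA, 161, 70.1 and 262 in MeVa2.1, 65.6, 55.5 and 219 in MeVa2.2.dOVA and 142, 42.6 and 219.6 in MeVa2.2. Replicate 2 was the lowest library of every line in both genes, and it was far below the others in MeVa2.1.dOVA and in MeVa2.2. Cenpa had 71.1, 20.3 and 68.4 CPM in replicates 1, 2 and 3 of MeVa2.1.dOVA, 78.3, 38.7 and 86.8 in MeVa2.1, 27.3, 20.3 and 64.8 in MeVa2.2.dOVA and 57.3, 13.4 and 89.6 in MeVa2.2. In MeVa2.1.dOVA over MeVa2.1 the log2 fold changes were -0.39 (SE 0.95) for Ccnb2, -0.38 (SE 0.78) for Foxm1 and -0.36 (SE 0.64) for Cenpa, each smaller than its SE. Without replicate 2 of MeVa2.1.dOVA they were 0.11, 0.12 and 0.030, and without replicate 3 of MeVa2.1 that of Foxm1 was 0.12.

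**Figure D4:**
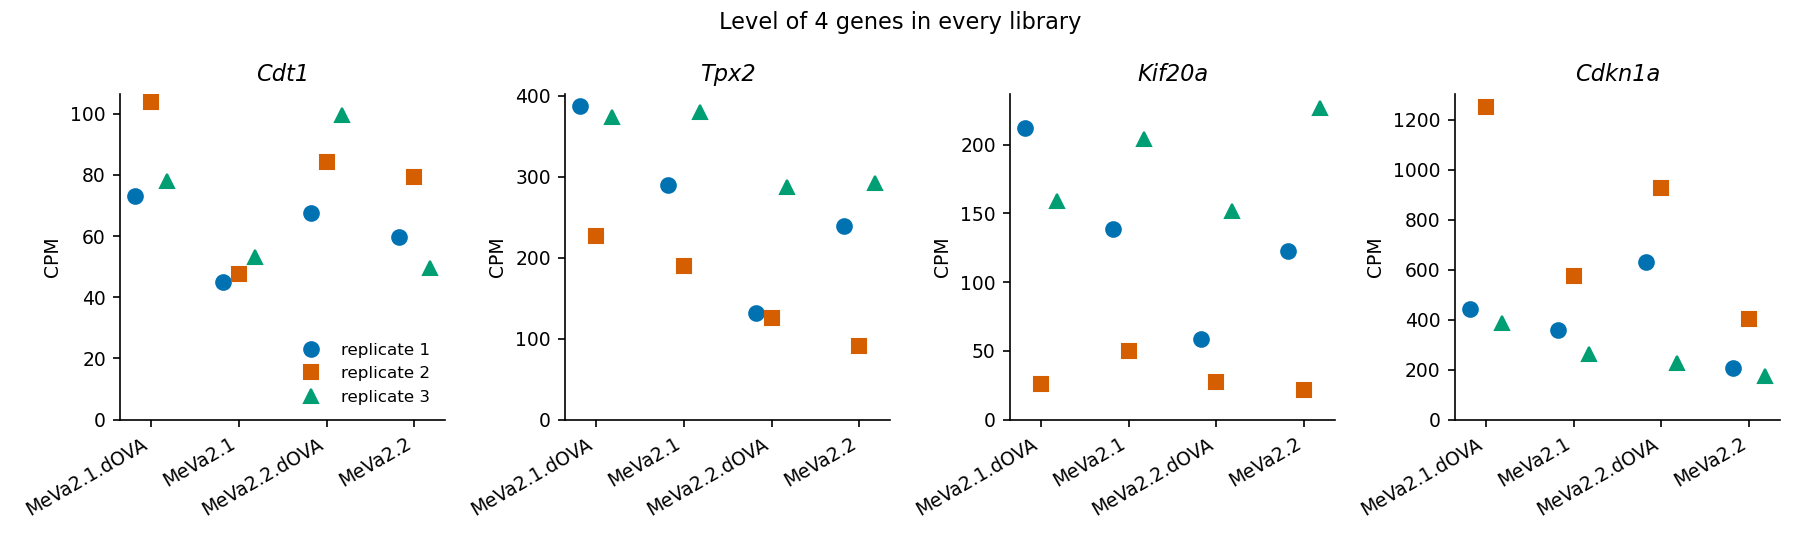
Level in CPM of Cdt1, Tpx2, Kif20a and the CDK inhibitor Cdkn1a in each of the 12 libraries, with the lines on the x axis and the replicate numbers as symbols. Kif20a is lowest and Cdkn1a highest in replicate 2 of every line, while the Cdt1 libraries of MeVa2.1.dOVA all lie above those of MeVa2.1.

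MeVa2.2.dOVA was set against MeVa2.2 in the same way. The S phase sum was 1419.8 ± 764 CPM in MeVa2.2.dOVA and 1713 ± 807 CPM in MeVa2.2, and the mitosis sum 1807 ± 1521 and 2411 ± 1776 CPM (SD, n = 3 each). The edgeR fit called 0 of the 39 members, where it called 1.99% of all genes, 0 had an unadjusted p under 0.05, where 16.4% of all genes did, and DESeq2 called 0. The fold changes were negative for 17 of 18 S phase and 21 of 21 mitosis members, with medians of -0.48 and -0.53, against -0.02 over all genes, and 0 members had libraries that did not overlap, against 17.3% of all genes. The direction was not the same in each number. The mitosis median of MeVa2.2.dOVA minus MeVa2.2 was -1.35 in replicate 1, 0.36 in replicate 2 and -0.24 in replicate 3, and that of the S phase group -1.04, 0.11 and -0.27. Without replicate 3 of MeVa2.2 the mitosis median was 0.28 and the S phase median -0.05, and without replicate 3 of MeVa2.2.dOVA they were -1.50 and -0.81.

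Gins2 had 14.4, 8.90 and 18.7 CPM in replicates 1, 2 and 3 of MeVa2.1.dOVA, 9.61, 11.5 and 24.0 in MeVa2.1, 3.56, 3.20 and 21.6 in MeVa2.2.dOVA and 20.7, 5.32 and 28.3 in MeVa2.2. Ccne2 had 19.0, 10.1 and 15.7 CPM in replicates 1, 2 and 3 of MeVa2.1.dOVA, 12.7, 11.4 and 20.7 in MeVa2.1, 14.5, 11.4 and 20.7 in MeVa2.2.dOVA and 26.2, 11.8 and 43.0 in MeVa2.2. In Gins2, 2 of the 3 MeVa2.2.dOVA libraries lay below every MeVa2.2 library and the other within their range. Melk had 45.8, 11.7 and 43.0 CPM in replicates 1, 2 and 3 of MeVa2.1.dOVA, 30.3, 16.1 and 64.2 in MeVa2.1, 5.82, 4.80 and 49.5 in MeVa2.2.dOVA and 36.8, 4.42 and 71.6 in MeVa2.2. Ccnb1 had 85.2, 27.1 and 79.5 CPM in replicates 1, 2 and 3 of MeVa2.1.dOVA, 81.0, 36.7 and 96.6 in MeVa2.1, 20.7, 21.1 and 63.7 in MeVa2.2.dOVA and 64.9, 21.3 and 92.6 in MeVa2.2. The libraries of MeVa2.2.dOVA and MeVa2.2 overlapped in all 4 genes. For MeVa2.2.dOVA over MeVa2.2 the fold changes were log2 -0.99 (SE 0.73) for Gins2, -0.83 (SE 0.42, adjusted p = 0.350) for Ccne2, -0.97 (SE 0.995) for Melk, a kinase of dividing cells, and -0.80 (SE 0.60) for Ccnb1. Ccnb2, with the values given above, had -0.94 (SE 0.96).

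MeVa2.1 and MeVa2.2, the lines without dOVA in their names, were not separated by either programme. The edgeR fit called 0 members, where it called 4.48% of all genes, 0 had an unadjusted p under 0.05, where 17.6% of all genes did, DESeq2 called 0, and in 0 members did the libraries not overlap, against 23.5% of all genes. The median log2 fold change of MeVa2.1 over MeVa2.2 was -0.33 in the S phase group, with 17 of 18 negative, and 0.11 in the mitosis group, against -0.02 over all genes. Without replicate 3 of MeVa2.2 the S phase median was 0.08. The mitosis median was -0.38 without replicate 3 of MeVa2.1, -0.34 without replicate 2 of MeVa2.2 and -0.01 without replicate 2 of every line.

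Ccne1 had 9.58, 3.91 and 7.57 CPM in replicates 1, 2 and 3 of MeVa2.1.dOVA, 9.50, 6.25 and 10.4 in MeVa2.1, 14.6, 8.16 and 9.44 in MeVa2.2.dOVA and 18.3, 7.48 and 25.1 in MeVa2.2. Ccne1 had log2 fold change -0.95, SE 0.44, adjusted p = 0.286 for MeVa2.1 over MeVa2.2, and Ccne2 had log2 fold change -0.84, SE 0.42, adjusted p = 0.330. Replicate 2 of MeVa2.2 lay within the MeVa2.1 range in both E-type cyclins, and replicates 1 and 3 of MeVa2.2 above it. Aurkb had 58.6, 17.3 and 75.3 CPM in replicates 1, 2 and 3 of MeVa2.1.dOVA, 49.1, 33.6 and 93.9 in MeVa2.1, 10.5, 9.17 and 71.6 in MeVa2.2.dOVA and 39.1, 9.80 and 81.9 in MeVa2.2. In Aurkb, the kinase of the chromosomal passenger complex, replicates 1 and 2 of MeVa2.2.dOVA and replicate 2 of MeVa2.2 were the lowest libraries. For MeVa2.1 over MeVa2.2 the log2 fold changes were 0.48 (SE 0.42) for Tpx2, 0.44 (SE 0.86) for Aurkb and 0.36 (SE 0.64) for Cenpa.

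MeVa2.1.dOVA and MeVa2.2.dOVA, which share no library with the pair just described, were compared last. The log2 fold change of MeVa2.1.dOVA over MeVa2.2.dOVA was positive for 15 of 18 S phase and 21 of 21 mitosis members, with medians of 0.27 and 0.45, against 0.01 over all genes. The edgeR fit called 0 of them, where it called 11.3% of all genes, 0 had an unadjusted p under 0.05, where 27.2% of all genes did, and DESeq2 called 0. No member's libraries stood clear of the other line, against 30% of all genes. The mitosis median was 1.85 within replicate 1, against 0.12 in replicate 2 and -0.14 in replicate 3. Without replicate 3 of MeVa2.2.dOVA the mitosis median was 1.59, and without its replicate 2 it was 0.13. The S phase median was -0.03 without replicate 1 of MeVa2.2.dOVA.

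Tpx2 had 388, 227 and 374 CPM in replicates 1, 2 and 3 of MeVa2.1.dOVA, 290.1, 189 and 381 in MeVa2.1, 132, 126 and 287 in MeVa2.2.dOVA and 239.7, 91.1 and 292 in MeVa2.2. Tpx2 (chromosome 2, 152847964 to 152895321, plus strand) had the smallest p of the members in this comparison, and averaged 329.9 ± 89.3 CPM in MeVa2.1.dOVA and 182 ± 91.4 CPM in MeVa2.2.dOVA (log2 fold change 0.91, SE 0.42, adjusted p = 0.194). With the replicate number as a block it was 0.94 (SE 0.24, adjusted p = 0.0189) and was called, where that fit called 22% of all genes. Tpx2 was higher in MeVa2.1.dOVA within each number, by 2.93-, 1.81- and 1.303-fold in replicates 1, 2 and 3. The fold was largest in replicate 1. There the deviations of the 2 lines from their means correlated across genes at 0.105, against 0.516 and 0.416 in replicates 2 and 3. The share of all genes higher in every number was not counted. The other members with the largest fold changes or smallest p were Ccnb2 (0.96, SE 0.96), Ccnb1 (0.91, SE 0.60), Mcm2 (0.63, SE 0.43), Gins2 (0.63, SE 0.73) and Ccne1 (-0.58, SE 0.44), on the log2 scale.

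**Figure D5:**
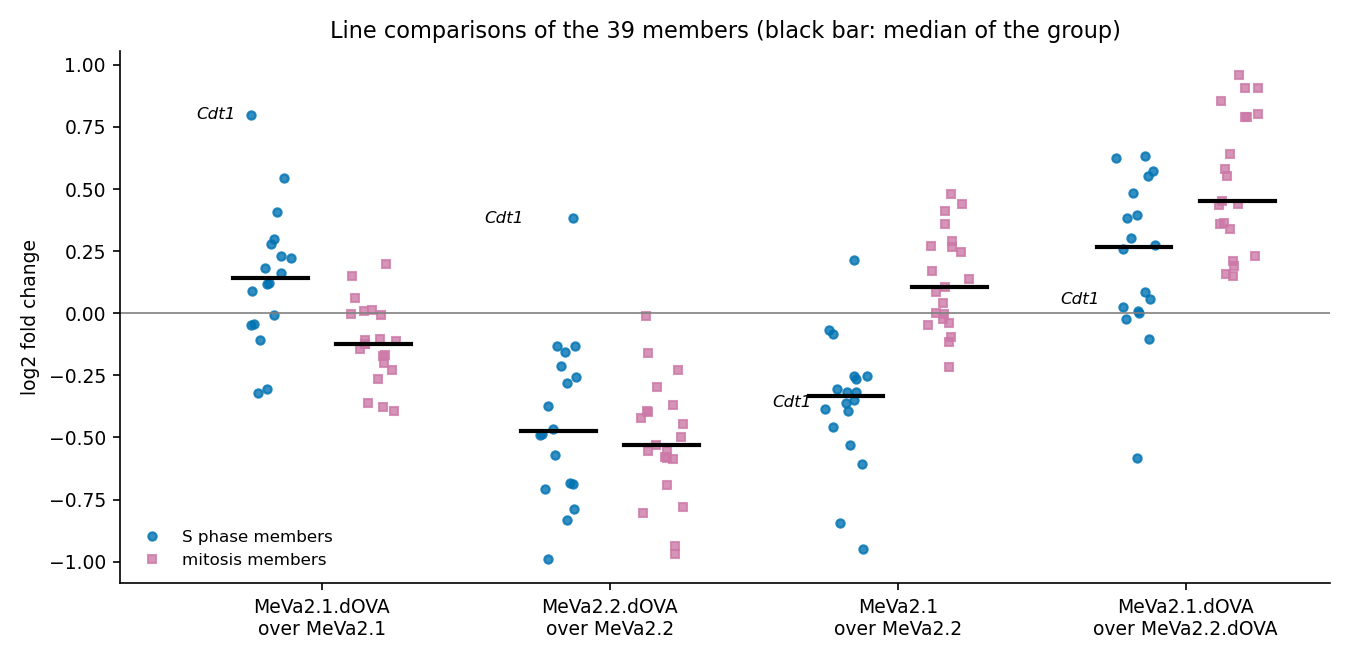
Log2 fold change of each of the 39 members in the 4 line comparisons, with S phase genes as circles, mitosis genes as squares and a black bar at the group's median. The mitosis medians run from -0.53 in MeVa2.2.dOVA over MeVa2.2 to 0.45 in MeVa2.1.dOVA over MeVa2.2.dOVA, and 0 members were called in any of the 4.

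Whether the dOVA difference itself differed between the MeVa2.1 and MeVa2.2 origins was tested as a difference of differences. It was positive for 18 of 18 S phase and 19 of 21 mitosis members, with medians of 0.63 and 0.41 on the log2 scale, against 0.02 over all genes. The edgeR fit called 0 members, where it called 0.0858% of all genes, 0 had an unadjusted p under 0.05, where 8.49% of all genes did, and DESeq2 called 0. Without replicate 3 of MeVa2.2 the mitosis median was -0.35 and the S phase median 0.19, and without replicate 3 of MeVa2.2.dOVA they were 1.47 and 1.10. Tyms had 48.1, 24.5 and 49.3 CPM in replicates 1, 2 and 3 of MeVa2.1.dOVA, 36.6, 23.7 and 54.0 in MeVa2.1, 17.9, 22.4 and 49.5 in MeVa2.2.dOVA and 56.7, 22.0 and 72.4 in MeVa2.2. Replicate 1 of Tyms was higher in MeVa2.1.dOVA than in its counterpart and lower in MeVa2.2.dOVA than in its own. The largest differences or smallest p in the S phase group belonged to Gins2 (0.88, SE 1.03), Tyms (0.88, SE 0.67), Ccne2 (0.82, SE 0.59) and Cdt1 (0.42, SE 0.32). In the mitosis group they belonged to Melk (0.82, SE 1.40), Kif20a (0.70, SE 1.24), Ccnb1 (0.64, SE 0.84) and Tpx2 (0.43, SE 0.60). Without replicate 3 of MeVa2.2 those of Melk and Kif20a were -0.093 and -0.12. With the replicate number as a block, 0 members were called here, where 0.844% of all genes were, 0 in MeVa2.2.dOVA over MeVa2.2, where 7.75% were, and 0 in MeVa2.1 over MeVa2.2, where 9.51% were.

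Other genes of the same programmes were counted in the same fits. Of 30 other S phase genes, the F test for replicate number called 22, against 20.1% of all genes. In replicate 3 over replicate 2, 26 were higher and 0 lower, against 13.8% and 11.6% of all genes, with a median log2 difference of 0.996. The largest were Dscc1, of a clamp-loading complex, at 2.55, E2f8, an atypical E2F repressor, at 2.11 and the helicase Brip1 at 2.04. Of 39 other G2/M genes the F test called 34, and 34 were higher and 1 lower, to be read against the same shares, with a median of 1.49. The largest were Cdca3 at 3.08, the kinesin Kif2c at 2.64 and the kinetochore protein Cenpf at 2.63. The one that was lower, Psrc1, a spindle protein that p53 is known to induce, had -0.64 (SE 0.20, adjusted p = 0.0410).

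Psrc1 was also the one gene of these 2 lists called between lines without a block. The call was in MeVa2.2.dOVA over MeVa2.2, where 1 of 39 other G2/M genes and 1.99% of all genes were called. Psrc1 had 69.0, 134 and 56.2 CPM in replicates 1, 2 and 3 of MeVa2.1.dOVA, 50.7, 59.5 and 59.4 in MeVa2.1, 86.6, 103 and 58.9 in MeVa2.2.dOVA and 24.8, 27.6 and 24.8 in MeVa2.2. Its MeVa2.2.dOVA libraries all lay above those of MeVa2.2. Libraries of these lines did not overlap in 2 of 39 other G2/M genes, against 17.3% of all genes. Psrc1 averaged 82.9 ± 22.3 CPM in MeVa2.2.dOVA and 25.7 ± 1.65 CPM in MeVa2.2 (log2 fold change 1.67, SE 0.33, adjusted p = 0.0324). In MeVa2.1.dOVA over MeVa2.1 it had log2 fold change 0.61, SE 0.32, adjusted p = 0.526. The call in MeVa2.2.dOVA over MeVa2.2 was lost without replicate 1 of MeVa2.2.dOVA (edgeR adjusted p = 0.0855), replicate 2 of MeVa2.2.dOVA (0.118), replicate 1 of MeVa2.2 (0.0963), replicate 3 of MeVa2.2 (0.0994), replicate 1 of MeVa2.1 (0.0507) or replicate 2 of MeVa2.1 (0.0511). The log2 fold change was 1.45 to 1.67 in these 6 fits. It was 1.66 with only the libraries of the 2 lines (adjusted p = 0.0884) and 1.51 without replicate 2 of every line (adjusted p = 0.0649). With the replicate number as a block, Psrc1 was also called in MeVa2.1 over MeVa2.2 (log2 fold change 1.15, SE 0.23, adjusted p = 0.0126), where that fit called 9.51% of all genes. Of these lists it called 1 of 30 other S phase genes, Atad2, and 4 of 39 other G2/M genes, Anp32e, Pimreg, Smc4 and Anln, as higher in MeVa2.1.dOVA than in MeVa2.2.dOVA, below the 22% of all genes called in that comparison, with Anln at log2 fold change 1.06, SE 0.21, adjusted p = 0.00655. These genes were named after their values were seen.

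Of 10 CDK inhibitors and pocket proteins, the brakes on both waves, 8 had enough counts to test and the F test called 5 by replicate number, against 20.1% of all genes. Cdkn1a, which encodes p21, had its high values where most members had their low ones. Cdkn1a had 441, 1251 and 388 CPM in replicates 1, 2 and 3 of MeVa2.1.dOVA, 359, 574 and 264 in MeVa2.1, 631, 928 and 227 in MeVa2.2.dOVA and 207, 401 and 175 in MeVa2.2. Replicate 2 was the highest and replicate 3 the lowest library in all 4 lines. How many of all genes had that order was not counted, and the part of Cdkn1a in the result was not tested. The log2 difference of replicate 3 over replicate 2 was -1.57 (SE 0.22, adjusted p = 0.00465), and that of replicate 2 over replicate 1 was 0.97 (adjusted p = 0.0476). Rb1, the retinoblastoma protein, was lower in replicate 3 than in replicate 2 by a log2 difference of -0.46, while Cdkn2c (1.61), Cdkn2d (1.43) and the pocket protein Rbl1 (1.14) were higher. Between lines, Cdkn2a, which encodes p16 and p19Arf, was listed at 0 counts in all 6 libraries of MeVa2.1.dOVA and MeVa2.1, against 0.596 ± 0.278 CPM in MeVa2.2.dOVA and 0.857 ± 0.142 CPM in MeVa2.2 (SD, n = 3 each). It had at most 19 counts in any library. Cdkn2a was called in MeVa2.1 over MeVa2.2, where 4.48% of all genes were, and in MeVa2.1.dOVA over MeVa2.2.dOVA, where 11.3% were. Without the replicate 2 library of every line, its adjusted p was 0.0411 for MeVa2.1.dOVA over MeVa2.2.dOVA and 0.0658 for MeVa2.1 over MeVa2.2, in a fit of 8 libraries in place of 12. With the replicate number as a block, Cdkn2c (log2 fold change 1.20, SE 0.25, adjusted p = 0.00846) and Cdkn2d (log2 fold change 1.90, SE 0.38, adjusted p = 0.00629) were called as higher in MeVa2.1.dOVA than in MeVa2.2.dOVA, where 22% of all genes were called, and Cdkn1b (log2 fold change 0.75, SE 0.21, adjusted p = 0.0462) and Cdkn2d (log2 fold change 1.39, SE 0.37, adjusted p = 0.0429) as higher in MeVa2.1 than in MeVa2.2, where 9.51% were. In MeVa2.2.dOVA over MeVa2.2, that fit called Cdkn1a (log2 fold change 1.08, SE 0.25, adjusted p = 0.0317) and 7.75% of all genes. The block entered the fit for this pair too, although the deviations of their replicate 1 libraries correlated across genes at 0.0815.

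Some members share sequence or position with other annotated genes. Among them, Pcna, Ccnb1 and Tyms have annotated pseudogenes, and Kif20a, Ccne2 and Gins2 overlap neighbouring genes. Of all counts in a file, 29.9% to 33.0% were set aside for low mapping quality and 0.6825% to 0.8088% as ambiguous. Whether these took in all reads that match several places, and the strand setting, are not given in the sources used here. The values of such genes are uncertain to that extent.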

How the data were processed

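RNA-seq of 12 libraries, 3 for each of 4 mouse melanoma lines, was analysed from the files the authors deposited, which hold raw read counts per gene. The submitters' processing notes name GRCm38 as the build, and HTSeq 0.10.0, STAR 2.6.0c and DESeq2 1.30.1 as tools. Per the labels' protocols, the libraries were strand-specific and made from mRNA. The strand setting of the counting is not given in the sources used here. The 5 tally lines closing each file entered neither totals nor tests.

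The 39 members, the other gene lists, the marker lists and the promoter motifs were chosen with earlier results of these data known. Genes were tested with edgeR 4.0.16 in R 4.3.3 (filterByExpr, TMM scaling, quasi-likelihood test, Benjamini-Hochberg adjustment over the 13985 genes tested, threshold 0.05). The line comparisons used 1 mean per line over all 12 libraries (8 residual degrees of freedom), and the comparison of replicate numbers used line and replicate number (6). Fold changes and differences are log2 values computed here from the deposited counts, and fits were tested on simulated data. CPM used the total of gene counts, positions and exon lengths came from GENCODE M21 on GRCm38, and promoter windows came from RefSeq on GRCm38.p6.

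Genes given with every library were members called in a comparison or, with none called, the 2 of each group with the largest fold change and the 2 with the smallest p. For replicate numbers they were the 3 of each group with the smallest p, and for levels the 2 highest and 2 lowest by mean CPM. Other genes of the lists were named where called, at most 3 per direction, except that all genes were named where a fit with the block called 5 or fewer of a list, after their values were seen.

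Pairing of replicate numbers comes from the data, since the labels leave its meaning unstated. Same-numbered libraries deviated together from their line means, with correlations across genes of 0.503, 0.488 and 0.534 in replicates 1, 2 and 3 for MeVa2.1.dOVA with MeVa2.1. For the 2 lines without dOVA the values were 0.429, 0.405 and 0.328, and for the 2 dOVA lines 0.105, 0.516 and 0.416. MeVa2.2.dOVA and MeVa2.2 gave 0.0815, 0.640 and 0.521 and were not treated as paired, since 1 value was not over 0.1. The plan of the tests named no such limit, and the replicate 1 value of the 2 dOVA lines, 0.105, lay just over it. The fit with the block and the comparison of replicate numbers gave all 4 lines the same replicate terms, MeVa2.2.dOVA and MeVa2.2 included. Alternatives were other scaling, no filter, DESeq2 1.42.0, the replicate number as a block, 2 lines at a time, each library left out, all libraries thinned to equal depth, and the libraries of 1 replicate number left out.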

Additional observations from a re-analysis of the deposited data

How the results depend on the processing

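In the comparison of replicate numbers, 14 S phase and 21 mitosis members were called. The S phase count was 14 with DESeq2 size factors, 16 with total gene counts alone or with no filter on low counts, and 15 with DESeq2's likelihood ratio test, and the mitosis count was 21 in each. Leaving out 1 library at a time gave 6 to 15 S phase members and 20 to 21 mitosis members. Leaving out all libraries of 1 number was chosen after seeing the data: without number 2, 0 S phase and 0 mitosis members were called, and without number 3, 1 and 12. The cause was not tested, and these fits have fewer samples.

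The 5 line comparisons called 0 members under every alternative except the replicate block. With the replicate number as a block, 1 S phase member, Cdt1, was called in MeVa2.1.dOVA over MeVa2.1, where 364 of all genes were called in place of 68, and 1 mitosis member, Tpx2, in MeVa2.1.dOVA over MeVa2.2.dOVA, where 3079 were called in place of 1574. The block left the other calls at 0, including MeVa2.2.dOVA over MeVa2.2, where the count over all genes was 1084 in place of 278. For this pair the block was in the fit as well, although its numbers were not otherwise treated as pairs. Of the other lists, that fit called E2f8, Anp32e and Pimreg as lower in MeVa2.2.dOVA, and Psrc1 and Cdkn1a as higher. The count over all genes was 1330 in place of 627 for MeVa2.1 over MeVa2.2 and 118 in place of 12 for the difference of differences.

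With 1 library left out at a time, the group medians of the line comparisons moved widely on the log2 scale, and most turned. The mitosis median ranged from -0.42 to 0.36 in MeVa2.1.dOVA over MeVa2.1, from -1.50 to 0.28 in MeVa2.2.dOVA over MeVa2.2, from -0.38 to 0.86 in MeVa2.1 over MeVa2.2, from 0.13 to 1.59 in MeVa2.1.dOVA over MeVa2.2.dOVA and from -0.35 to 1.47 in the difference of differences. In the same order, the S phase median ranged from -0.07 to 0.57, from -0.81 to -0.05, from -0.79 to 0.08, from -0.03 to 0.78 and from 0.19 to 1.10. Single genes whose direction turned were not called. In MeVa2.1.dOVA over MeVa2.1 the ranges were -0.75 to 0.11 for Ccnb2, -0.79 to 0.12 for Foxm1 and -0.62 to 0.030 for Cenpa. In MeVa2.1 over MeVa2.2 they were -0.035 to 1.31 for Aurkb and -0.10 to 0.98 for Cenpa, and in the difference of differences -0.12 to 1.53 for Kif20a and -0.093 to 2.68 for Melk.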
